A study of Mus musculus with 48 samples.

Results

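The 50 genes described here are 26 genes of DNA replication and 24 genes of mitosis, chosen by symbol from a table of 55401 mouse genes counted in whole colon. Each symbol was matched to 1 row of the table through its Ensembl identifier in GENCODE vM21. RNA was sequenced from 48 male C57BL/6J mice aged 18 to 20 weeks, with 4 h between the groups, which were killed during the second day in darkness at circadian times (CT) 1, 5, 9, 13, 17 and 21. The 24 control mice were Bmal1fl/fl x Villin wt/wt littermates, and the 24 Bmal1IEC-/- mice were Bmal1fl/fl x Villin CRE/wt, so that both genotypes carried the floxed allele of the clock gene Bmal1. Each of the 12 groups held 4 mice, and each library came from 1 mouse. The Villin promoter drives Cre in intestinal epithelial cells, and the other cells of the colon wall, such as smooth muscle, fibroblasts and immune cells, kept Bmal1. The design asks how the daily course of these genes in the colon differs when the epithelium lacks its clock.

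A dividing cell first loads the MCM helicase on its origins, fires them with Cdc45 and the GINS complex, copies the DNA at forks held by the sliding clamp PCNA, and draws on an enlarged supply of deoxynucleotides. Only later does it make the cyclins, kinases and motors that condense, align and separate the chromosomes. The genes of the former set are known targets of E2F factors, whereas many genes of the latter set are controlled through the cell cycle homology region (CHR) and CCAAT boxes. In the colon most division takes place at the base of the crypts, from which the epithelium is renewed.

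The promoters of both sets are shown first, because the lists hold different shares of known cell cycle motifs. RefSeq promoter windows of GRCm38.p6, each covering 250 bases before and 50 bases after a start, were found for 42 of the 50 genes. Gins1, Gins2, Mcm4, Ccne2, Tpx2, Ccna2, Aurkb and Kif20a had no match. The stretches below hold the bases before the start of a window, cut where the annotated start of the gene comes first. Where a gene had several windows the one furthest upstream was used. Rrm2, Nusap1 and Top2a end at the annotated start. Lig1, Mcm6 and Hmmr end before it (13277283, 128359664 and 40733422). All read 5′ to 3′ along the gene, in lower case, with capitals for matches on either strand. The motifs were an E2F core (TTCCCGC, its variant TTGGCGC, its variant TTCGCGC and its variant TTGCCGC), the CHR core TTTGAA, the CCAAT box, and the E-box CACGTG to which the BMAL1 dimer is known to bind. Rrm2, Lig1, Nusap1 and Hmmr are shown as the genes of their list with the largest control amplitude among those with a window, and Mcm6 and Top2a were added, after their matches had been seen, as examples with many matches.
Rrm2, chr12:24708004-24708240, plus strand: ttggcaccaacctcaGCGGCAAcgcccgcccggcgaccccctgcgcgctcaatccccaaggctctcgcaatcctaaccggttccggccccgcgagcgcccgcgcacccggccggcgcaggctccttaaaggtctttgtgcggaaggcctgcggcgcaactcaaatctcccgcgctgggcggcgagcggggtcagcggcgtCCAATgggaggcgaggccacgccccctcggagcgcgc
Lig1, chr7:13276925-13277174, plus strand: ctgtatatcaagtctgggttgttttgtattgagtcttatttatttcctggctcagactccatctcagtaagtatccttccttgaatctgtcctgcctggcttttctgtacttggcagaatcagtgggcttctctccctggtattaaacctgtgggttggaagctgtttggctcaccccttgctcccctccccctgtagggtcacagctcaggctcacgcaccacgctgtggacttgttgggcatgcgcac
Mcm6, chr1:128359706-128359955, minus strand: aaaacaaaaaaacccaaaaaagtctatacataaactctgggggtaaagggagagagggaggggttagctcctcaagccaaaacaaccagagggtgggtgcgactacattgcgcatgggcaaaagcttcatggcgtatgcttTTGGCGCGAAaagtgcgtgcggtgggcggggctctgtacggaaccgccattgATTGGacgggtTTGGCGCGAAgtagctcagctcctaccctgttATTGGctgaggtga
Nusap1, chr2:119618048-119618297, plus strand: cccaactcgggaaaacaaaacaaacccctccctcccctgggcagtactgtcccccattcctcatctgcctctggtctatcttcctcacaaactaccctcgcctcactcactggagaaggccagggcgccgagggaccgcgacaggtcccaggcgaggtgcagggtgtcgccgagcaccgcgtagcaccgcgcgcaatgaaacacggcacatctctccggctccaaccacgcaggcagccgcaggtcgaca
Hmmr, chr11:40733438-40733687, minus strand: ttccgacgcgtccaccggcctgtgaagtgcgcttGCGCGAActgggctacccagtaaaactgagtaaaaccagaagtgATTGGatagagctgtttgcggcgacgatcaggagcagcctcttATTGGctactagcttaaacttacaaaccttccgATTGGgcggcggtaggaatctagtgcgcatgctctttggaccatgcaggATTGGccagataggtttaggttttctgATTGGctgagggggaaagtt
Top2a, chr11:99024190-99024439, minus strand: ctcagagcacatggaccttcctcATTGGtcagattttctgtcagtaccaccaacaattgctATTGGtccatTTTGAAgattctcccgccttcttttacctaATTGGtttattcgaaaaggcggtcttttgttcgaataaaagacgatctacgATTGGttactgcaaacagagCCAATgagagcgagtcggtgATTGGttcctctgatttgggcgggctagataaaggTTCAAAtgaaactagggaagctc

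In these stretches Mcm6 held 4 E2F cores at 2 separate places, each with 2 overlapping matches on opposite strands. Top2a held 2 CHR cores and 6 CCAAT boxes, whereas the Nusap1 and Lig1 stretches held no match. The Nusap1 window had none at all, but Lig1 windows held E2F cores after the start, at bases 4, 27 and 43, and an E-box at base 37. Over whole windows, an E2F core was present in 18 of 27 windows of replication genes (66.7%) and in 4 of 20 windows of mitosis genes (20%), against 9.57% of all 32851 windows. The CHR core showed the opposite split, with 3 windows of replication genes (11.1%) and 15 windows of mitosis genes (75%), against 17.9% of all windows. CCAAT boxes stood in 59.3% and 85% of the windows of the lists, against 37.4% of all. The E-box stood in 3 windows of replication genes (Fen1, Lig1 and Tyms) and in 2 windows of mitosis genes (Anln and Ttk), which is 11.1% and 10% against 7.15% of all windows. The mitosis genes with a window but without a CHR core were Birc5, Bub1, Ccnb1, Cenpe and Nusap1. A match of letters is a description of the window and does not show that a factor binds there.

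Between 3144997 and 4785844 reads were counted per mouse, with medians of 3775926 in controls and 3891600 in Bmal1IEC-/- mice. After a filter on low counts 14618 genes were tested, among them 49 of the 50. Fen1, the flap nuclease of lagging strand synthesis, was left out at 0 to 3 counts per mouse, and 78.82% of its exon bases are shared with the antisense gene Gm10143. Bmal1 itself (Arntl) peaked at CT23.3 in controls with an amplitude of 1.76 ± 0.09 on the log2 scale (SE, n = 24), and its fitted amplitude in Bmal1IEC-/- colon was 0.16 (adjusted p = 0.225), with a difference in rhythm of adjusted p = 9.4e-14. Markers of epithelium were high in every mouse, those of smooth muscle and fibroblasts were also plain, and 5 of 7 follicle B cell markers failed the filter. In 1 Bmal1IEC-/- mouse at CT1 (SV385) the mean log2 CPM (counts scaled to the size of each library) was 6.49 for smooth muscle markers and 5.67 for fibroblast markers, against 7.95 to 8.78 and 6.87 to 7.74 in the 46 mice other than SV384 and SV385. SV384, also a Bmal1IEC-/- mouse at CT1, was inside both ranges, at 8.23 and 7.69. The study filtered out low-quality samples and showed 46 colon samples, without naming those left out. Whether SV384 and SV385 were those samples is not known here. Without them SV479 and SV480 are the Bmal1IEC-/- mice left at CT1. Results that rest on SV384 and SV385 are given with and without them.

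In control colon the replication genes and the mitosis genes both followed a daily rhythm, and nearly every gene of the lists took part. A 24-h cosine was fitted to each gene in edgeR, giving a peak time and an amplitude, which is the log2 distance from the mean to the peak. Of the replication genes 24 of 25 were called rhythmic by edgeR's quasi-likelihood test, that is, at a p under 0.05 after Benjamini-Hochberg adjustment over all genes, and of the mitosis genes 24 of 24, whereas 45.1% of all 14618 genes were called. The median amplitude was 0.51 for replication genes and 0.95 for mitosis genes, against 0.20 over all genes tested. These values describe whole colon, in which fewer dividing cells and less RNA per dividing cell cannot be told apart.

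**Figure D1:**
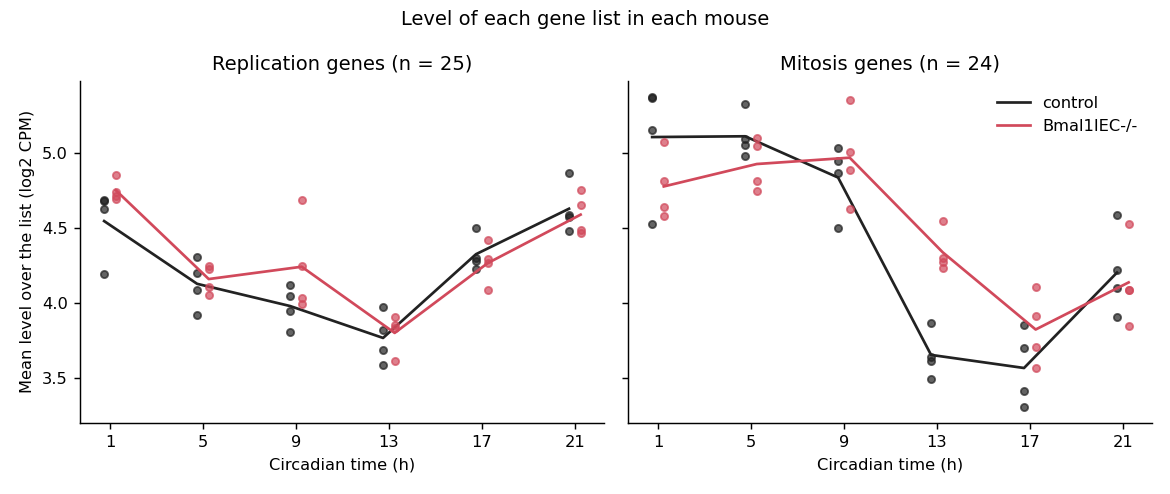
Mean log2 CPM over the 25 replication genes (left) and the 24 mitosis genes (right) in each mouse (points) against circadian time in hours, with lines through the group means of 4 control or 4 Bmal1IEC-/- mice. Control mice were lowest at CT13 for replication genes (mean 3.77) and at CT17 for mitosis genes (mean 3.57), and at CT13 the 4 Bmal1IEC-/- mice lay above all 4 control mice for mitosis genes.

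Licensing and helicase genes rose in the late subjective night. Mcm6, a subunit of the helicase, measured 77.7, 93.3, 96.3 and 112 CPM in the 4 control mice at CT21 and 35.4, 41.1, 43.5 and 49.5 CPM at CT13. Every CT21 mouse was above every CT13 mouse. Its fitted amplitude was 0.61 ± 0.07 (SE), a peak-to-trough fold of 2.32, with a peak at CT21.7 (adjusted p = 3.41e-08). Gins1, a subunit of the GINS complex that completes the helicase, had the largest amplitude of the replication list (0.81 ± 0.15), although at low counts. Its control values were 4.72, 5.01, 5.98 and 7.86 CPM at CT21 against 1.12, 1.66, 1.97 and 2.16 CPM at CT13, again without overlap. Both genes were named for a large control amplitude and are shown at their highest and lowest group means. Such gaps therefore only describe the genes, and the same holds for Lig1, Rrm2, Nusap1 and Ccnb1 below. The 12 genes of this role (Mcm2 to Mcm7, Mcm10, Cdc45, which joins the helicase, Cdc6 and Cdt1, which load it, Gins1 and Gins2) were all called in controls, with a median peak of CT21.8.

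Within this role Cdt1 and Mcm2 were early and Mcm10 and Gins2 late. Mcm2 peaked at CT18.9 ± 0.54 h, before Mcm6 at CT21.7 ± 0.46 h. In the controls Mcm2 was already at 28.0, 32.4, 36.8 and 39.2 CPM at CT17 and had fallen back to between 20.8 and 24.0 CPM at CT1. Cdt1, at CT18.6 ± 1.31 h, was called narrowly (adjusted p = 0.0438) and was lost in 12 of 58 alternative settings. Mcm10, which helps to start the helicase, peaked at CT0.694 ± 0.73 h, and Gins2 at CT1.05 ± 0.97 h.

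Genes of fork synthesis and of nucleotide supply had later median peaks, but the ranges of the roles overlapped. Licensing and helicase genes ran from CT18.6 to CT1.05, fork genes from CT21.2 to CT2.23 and nucleotide supply from CT22.2 to CT24.0. Errors of single genes reached 1.31 h (Cdt1), so these roles cannot be separated. Lig1, the ligase that joins Okazaki fragments, measured 30.5, 41.0, 44.0 and 55.5 CPM at CT1 and 11.7, 15.4, 15.7 and 20.4 CPM at CT13 in controls. The values at these times did not overlap, and the amplitude was 0.61 ± 0.08 with a peak at CT0.144. Rrm2, the S phase subunit of ribonucleotide reductase, measured 21.4, 25.1, 27.0 and 30.0 CPM at CT1 and 9.47, 9.55, 9.77 and 10.2 CPM at CT13, and its amplitude was 0.66 ± 0.10. Both were high around CT1 and low in all 4 mice at CT13. Fork genes (Pcna, Rfc3 and Rfc4 of the clamp loader, Pola1 and Prim1 of the priming polymerase, and Lig1) had a median peak of CT23.5. The 4 genes of nucleotide supply (Rrm1, Rrm2, Tyms, the thymidylate synthase, and Tk1, a thymidine kinase) had a median peak of CT23.1, and Tk1 had the smallest amplitude of the replication list at 0.22 ± 0.06.

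The clamp gene Pcna changed by less than most although it was the most abundant replication gene per kilobase of exon (37.6 CPM per kb). It measured 91.5, 102, 105 and 111 CPM at CT21 and 56.7, 65.6, 74.2 and 74.3 CPM at CT9 in controls, and its peak-to-trough fold was 1.59. Uhrf1, which keeps DNA methylation through replication, had a larger fold of 2.32 with a peak at CT22.5. Ung, a uracil glycosylase of base excision repair, had the earliest peak of the list at CT17.01 ± 0.75 h. Ccne2, a cyclin of S phase entry, was the 1 replication gene not called (amplitude 0.28 ± 0.10, adjusted p = 0.0628). Of its exon bases 17.42% are shared with Ints8 on the opposite strand.

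Mitosis genes rose around the subjective morning and changed by more. Nusap1, a microtubule-binding protein of the spindle, had the largest amplitude of all 49 genes at 1.22 ± 0.10, a peak-to-trough fold of 5.39. Its control values were 24.2, 33.6, 47.8 and 51.2 CPM at CT1, 30.2, 35.0, 36.2 and 45.1 CPM at CT5, and 5.22, 7.36, 7.72 and 13.7 CPM at CT17. All mice of the early day were above all mice of CT17. Hmmr, a spindle protein, followed at 1.18 ± 0.14, and the kinetochore genes Cenpe and Cenpf at 1.09 ± 0.11 and 1.07 ± 0.11. The 10 genes of spindle and division, which also include the motors Kif11, Kif20a and Kif23, the spindle assembly factor Tpx2, the chromosomal passenger protein Birc5 and the contractile ring protein Anln, had a median amplitude of 1.01.

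Cyclins, kinases and the chromosome genes moved with them. Ccnb1, the cyclin that activates Cdk1 for mitosis, measured 26.1, 31.1, 35.0 and 46.4 CPM at CT5 and 9.53, 10.2, 10.6 and 10.7 CPM at CT17, with an amplitude of 1.03 ± 0.10 and a peak at CT4.67. Mki67, the proliferation marker that coats mitotic chromosomes, was the mitosis gene with the most reads and measured 192, 207, 213 and 231 CPM at CT5 against 48.1, 57.0, 92.2 and 97.7 CPM at CT17. Neither gene overlapped between these times. Top2a, the topoisomerase that untangles chromosomes, had an amplitude of 0.98 ± 0.09, and the 4 genes Ccna2, Ccnb1, Ccnb2 and Cdk1 had a median of 0.98. Ube2c and Cdc20, which drive the anaphase-promoting complex, had 0.97 ± 0.09 and 0.93 ± 0.12. Of the 6 kinases (Plk1, Aurka, Aurkb, Bub1, Bub1b and Ttk) Plk1 was the exception.

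Plk1, a kinase of mitotic entry and exit, had an amplitude of 0.31 ± 0.05, whereas the other 5 kinases ranged from 0.78 for Bub1b to 0.92 for Ttk. Its 4 control mice were at 94.0, 94.1, 103 and 103 CPM at CT5 and at 58.3, 61.8, 67.1 and 69.5 CPM at CT17, so that the times were apart but the trough remained high. Plk1 ends 19 bases from Ern2, a gene on the opposite strand that measured 182 to 198 CPM in controls at CT5 and 135 to 168 CPM at CT17. The strand setting of the counting is not given in the sources used here, and the part of reads from Ern2 in the Plk1 count was not tested. The same limit holds for Gins2, of whose exon bases 67.32% are shared with Gse1, and for Kif20a with Cdc23 (29.3%), Ube2c with Tnnc2 (22.77%), Rfc4 with Eif4a2 (12.65%) and Ccna2 with Exosc9 (12.49%).

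The replication genes of the list peaked before its mitosis genes, and in controls the order of the lists held for every called gene. It did not hold for every gene of the same pathways outside the lists, whose ranges are given below. The circular mean of the peaks was CT22.4 for the 24 called replication genes, ranging from CT17.01 (Ung) to CT2.23 (Rfc3), and CT3.98 for the mitosis genes, ranging from CT2.66 (Bub1) to CT5.54 (Cdc20). The means lay 5.56 h apart, and the latest replication gene preceded the earliest mitosis gene by 0.426 h. That smallest step is within the errors of Rfc3 (0.91 h) and Bub1 (0.47 h), so these neighbours in the order do not differ beyond their errors. Of all genes called in controls, 28.9% peaked within the range of the replication genes and 21.8% within that of the mitosis genes, so neither window is used by these genes alone. Within the mitosis list the median peak was CT3.13 for the chromosome genes Top2a and Mki67, CT3.68 for the kinases, CT3.89 for spindle and division, CT4.17 for the cyclins and Cdk1, and CT5.19 for Ube2c and Cdc20. Errors of single genes were between 0.31 and 0.65 h, so roles next to each other in this order cannot be separated.

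**Figure D2:**
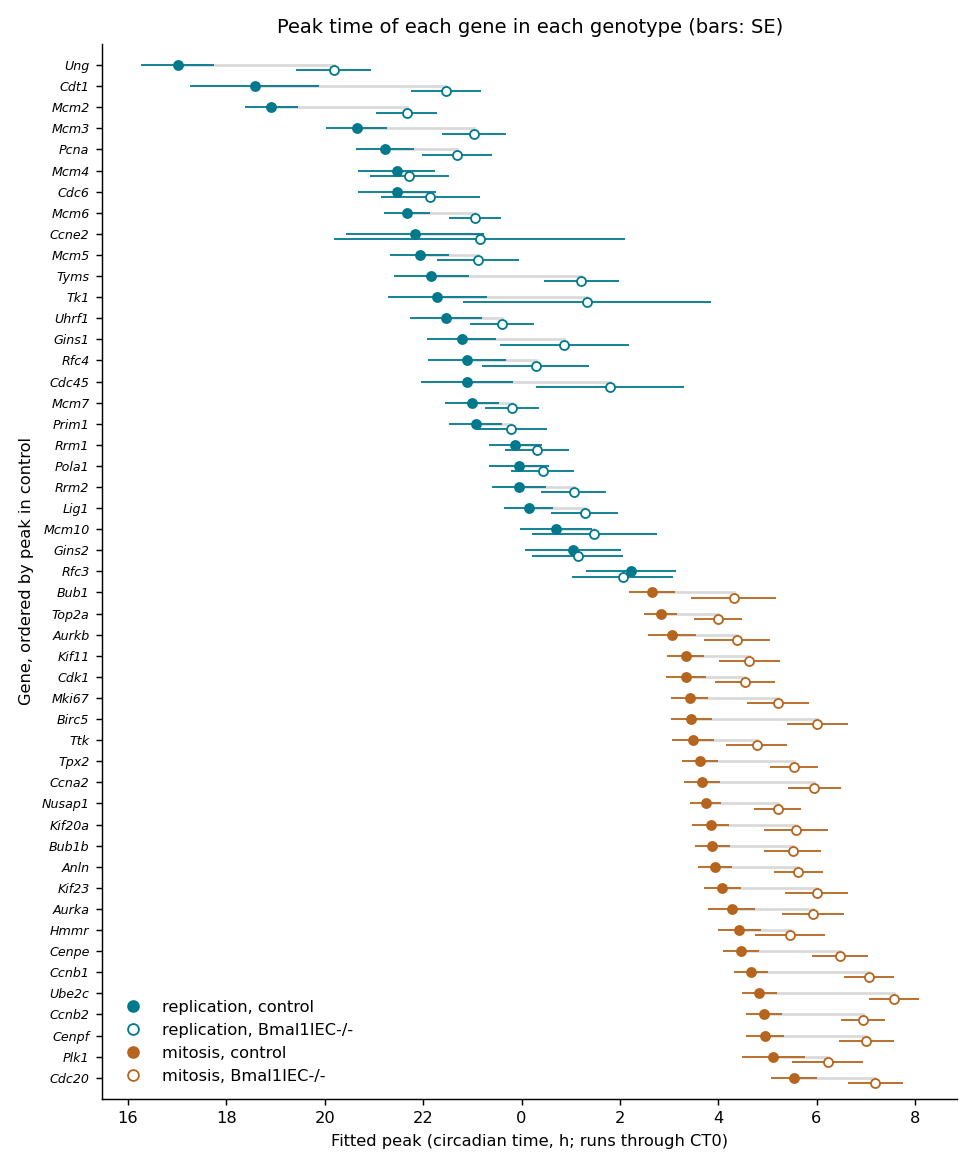
Fitted peak of each of the 49 genes in controls (filled) and Bmal1IEC-/- mice (open), in hours of circadian time running through CT0, with bars for the SE of the fit and 24 mice per genotype. Replication genes peaked between CT17.01 and CT2.23 in controls and the mitosis genes after them, and nearly all open points lie to the right of the filled ones.

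Plotted against each other, the lists traced a loop through the day. In controls the replication list was at its mean maximum of 4.63 ± 0.17 log2 CPM at CT21 (SD, n = 4), when the mitosis list was at 4.21 ± 0.29. By CT5 the replication list had dropped to 4.13 ± 0.16 while the mitosis list was at 5.11 ± 0.15. At CT13 both were low (3.77 ± 0.17 and 3.66 ± 0.15), and at CT17 the replication list was back at 4.33 ± 0.12 with the mitosis list still at 3.57 ± 0.25. Genes of 1 list are not independent of each other, so these lines are a description.

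**Figure D3:**
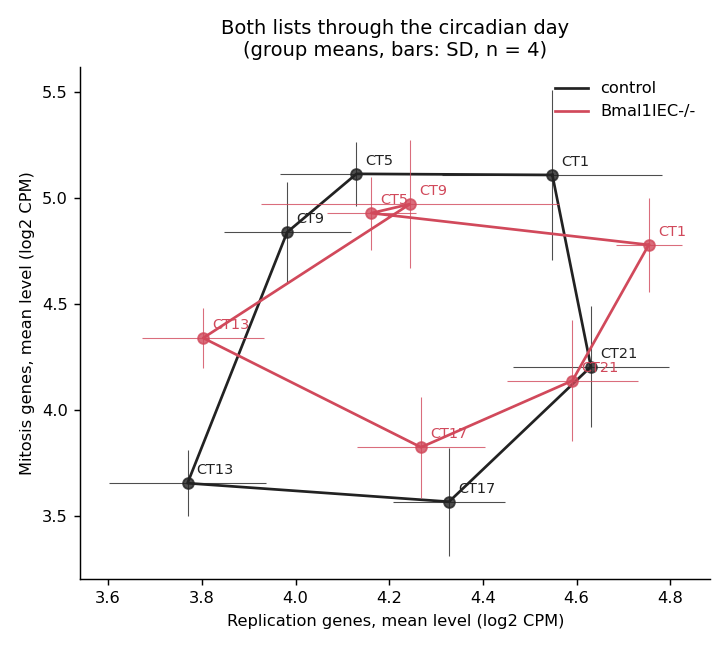
Mean log2 CPM of the 24 mitosis genes against that of the 25 replication genes at each circadian time, as group means with SD over 4 mice for each genotype. The control path is wide, from 3.57 to 5.11 on the mitosis axis, and the Bmal1IEC-/- path is narrower, from 3.83 to 4.97, with CT13 moved upward.

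In Bmal1IEC-/- colon most of these rhythms were still present. Of the replication genes 20 of 25 were called and of the mitosis genes 24 of 24, against 27.5% of all genes in that genotype. All 20 and all 24 were also called in controls, and 21.5% of all genes were called in both. The replication genes not called in Bmal1IEC-/- mice were Mcm10 (adjusted p = 0.0588), Gins1 (0.0694), Cdc45 (0.121), Tk1 (0.462) and Ccne2 (0.564), by edgeR's quasi-likelihood test. For none of these 5 genes did the rhythm itself differ between genotypes at an adjusted p under 0.05, so a loss of rhythm was not shown for them. Gins1, for example, was at 3.64, 3.88, 4.47 and 4.54 CPM at CT21 and at 1.14, 1.49, 2.30 and 2.40 CPM at CT13 in Bmal1IEC-/- mice, which is still without overlap.

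The order of the lists was kept and the peaks were later. In Bmal1IEC-/- mice the circular mean was CT23.6 for the replication genes (CT20.2 to CT2.06) and CT5.72 for the mitosis genes (CT4.00 for Top2a to CT7.57 for Ube2c), a distance of 6.15 h, and the ranges were 1.94 h apart. Among genes called in both genotypes the peak was later in Bmal1IEC-/- mice for 19 of 20 replication genes, with a median shift of 1.14 h, and for 24 of 24 mitosis genes, with a median of 1.68 h. Without the Bmal1IEC-/- mouse SV400 at CT9 the medians were 0.593 h and 1.47 h. All 3147 genes called in both had a median shift of 1.37 h, and 81.0% of them peaked later, so a later peak was common in the whole colon transcriptome. With all 48 mice the shifts of single replication genes ran from -0.17 ± 1.37 h (Rfc3) to 3.90 ± 1.5 h (Cdt1). Those of mitosis genes ran from 1.03 ± 0.83 h (Hmmr) to 2.73 ± 0.62 h (Ube2c). Tyms moved from CT22.2 to CT1.22, a shift of 3.05 ± 1.08 h, and Mcm2 by 2.75 ± 0.83 h. Without SV384 and SV385 the mitosis genes ran from Plk1, at CT5.20 in controls and CT5.32 in Bmal1IEC-/- mice, to Ube2c, at CT4.86 and CT7.83. Mcm2 was then at CT18.9 and CT20.9. The peak was still later for 18 of 19 replication and 24 of 24 mitosis genes called in both, and the median over all such genes was 1.13 h. Shifts were not tested apart from amplitude.

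Most fitted amplitudes were also smaller in Bmal1IEC-/- mice. The ratio of the Bmal1IEC-/- amplitude to the control amplitude had a median of 0.875 over the 20 replication genes, 0.668 over the 24 mitosis genes and 0.854 over all genes called in both. It was below 1 for 17 of 20, for 24 of 24 and for 70.9% of all. The amplitude of Nusap1 was 1.22 ± 0.10 in controls and 0.79 ± 0.10 in Bmal1IEC-/- mice. Mki67 had 0.94 ± 0.09 and 0.56 ± 0.09, and Bub1, a spindle checkpoint kinase, had 0.90 ± 0.11 and 0.49 ± 0.11, but neither passed the test of the rhythm difference (adjusted p = 0.0602 and 0.162). Cdt1 had the opposite values, 0.28 ± 0.10 in controls and 0.50 ± 0.09 in Bmal1IEC-/- mice (adjusted p of the rhythm difference = 0.161).

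The test of the difference in rhythm, which takes amplitude and peak time together, called 7 of 24 mitosis genes and 0 of 25 replication genes, against 1.92% of all genes. By edgeR's quasi-likelihood test the adjusted p was 0.00606 for Ube2c, 0.0132 for Ccnb1, 0.0233 for Ccna2, the cyclin of late S phase and mitotic entry, 0.0378 for Birc5, 0.0430 for Cenpe, 0.0486 for Kif23, a motor of cytokinesis, and 0.0493 for Nusap1. At an unadjusted p under 0.05 the counts were 20 mitosis and 5 replication genes, against 15.3% of all. DESeq2 called 13 mitosis genes, against 3.01% of all. Without SV384 and SV385 only Ube2c and Ccnb1 were called (adjusted p = 0.00720 and 0.0358, against 0.935% of all genes), and leaving out single mice gave 2 to 13 calls, with 21 of the 48 mice moving the count by over 1.5 times, the fewest without SV455, SV468, SV397 or SV424 (controls at CT1 and CT13) and the most without SV479 (Bmal1IEC-/-, CT1).

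Ube2c and Ccnb1 show what the test measured. Ube2c, the ubiquitin-conjugating enzyme of the anaphase-promoting complex, was at 27.7, 27.9, 29.2 and 32.0 CPM at CT5 in controls and at 20.8, 20.9, 24.6 and 24.8 CPM in Bmal1IEC-/- mice. At CT13 the controls were at 8.14, 9.99, 12.7 and 17.02 CPM and the Bmal1IEC-/- mice at 18.4, 21.3, 23.6 and 26.1 CPM. The genotypes did not overlap at either time, in opposite directions, and the peak moved from CT4.83 ± 0.36 h to CT7.57 ± 0.51 h. Of all genes 1.92% were likewise lower without overlap at CT5, and 6.49% higher at CT13. Ccnb1 was at 19.9, 34.2, 37.4 and 41.2 CPM at CT1 in controls and at 17.3, 19.2, 20.6 and 22.7 CPM in Bmal1IEC-/- mice, with 1 control mouse inside the Bmal1IEC-/- range. At CT13 it was at 9.55, 10.2, 12.2 and 15.6 CPM against 17.7, 18.2, 21.5 and 25.8 CPM, without overlap, and its peak moved from CT4.67 ± 0.35 h to CT7.07 ± 0.51 h.

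**Figure D4:**
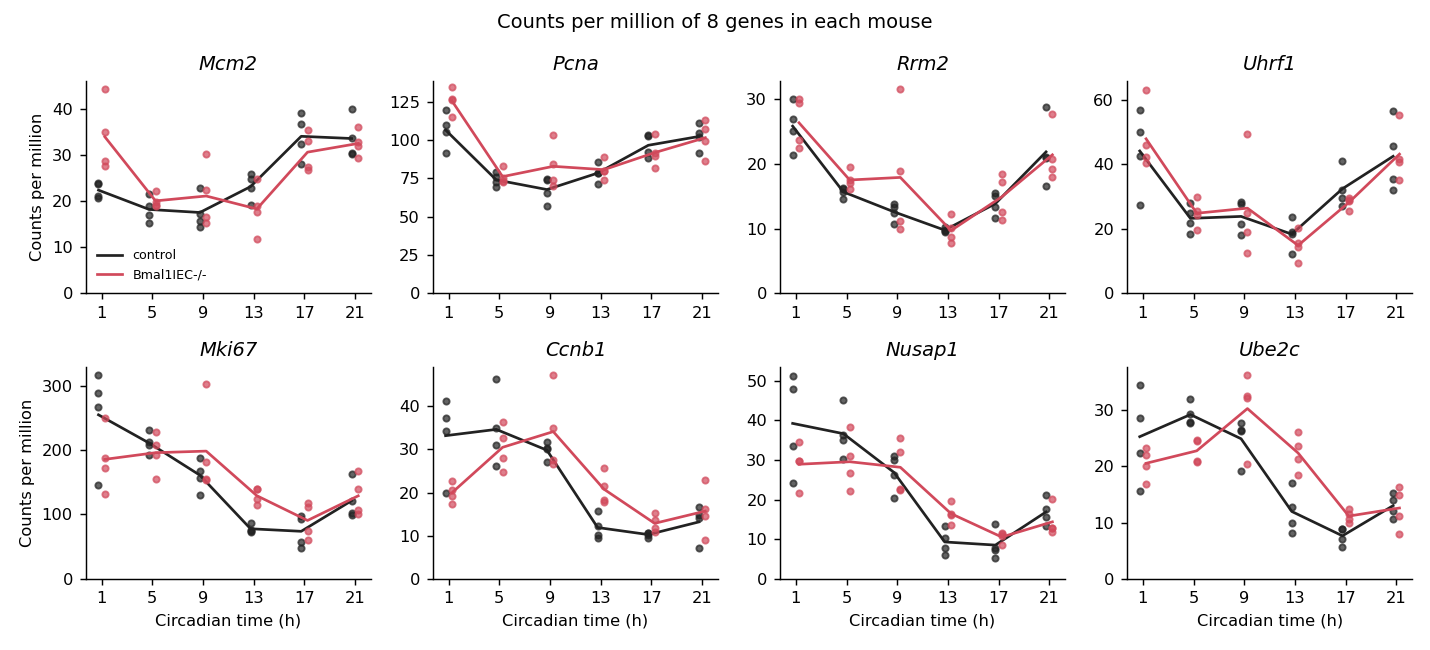
CPM of 4 replication genes (top) and 4 mitosis genes (bottom) in each mouse against circadian time in hours, with lines through the means of 4 control and 4 Bmal1IEC-/- mice. The Bmal1IEC-/- points of Ccnb1 and Ube2c at CT13 lie above all control points, while Rrm2 and Uhrf1 overlap between genotypes at CT13.

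Genotypes were then compared at each circadian time, and most calls of mitosis genes fell at CT13. There 9 of 24 mitosis genes were called higher in Bmal1IEC-/- mice and 0 lower, against 1.83% of all genes called higher, 1.75% called lower and 3.58% in either direction, and 0 of 25 replication genes were called. At an unadjusted p under 0.05 the counts were 20 mitosis genes, all higher, and 3 replication genes, against 15.7% of all. The genes were Ccna2 (log2 fold change 1.02 ± 0.22, adjusted p = 0.00293), Ube2c (0.91 ± 0.20, 0.00495), Ccnb2 (0.89 ± 0.23, 0.0186), Birc5 (0.84 ± 0.22, 0.0191), Hmmr (1.21 ± 0.32, 0.0194), Cenpf (0.96 ± 0.25, 0.0209), Ccnb1 (0.81 ± 0.23, 0.0369), the checkpoint kinase Bub1b (0.63 ± 0.18, 0.0404) and Kif20a (0.86 ± 0.25, 0.0417). Over the mitosis list the median was 0.71 and 23 of 24 values were above 0, the exception being Plk1 at -0.20, while the median over all genes was -0.00475. For 18 of 24 mitosis genes the 4 Bmal1IEC-/- mice lay above the 4 controls, against 6.49% of all genes, and for 2 of 25 replication genes, Tyms and Gins2.

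Hmmr at CT13 was at 3.35, 3.93, 5.71 and 7.30 CPM in controls and at 10.2, 10.6, 12.9 and 13.5 CPM in Bmal1IEC-/- mice. Mki67, which was not called there (adjusted p = 0.0638), was at 73.0, 74.5, 76.6 and 86.8 CPM against 114, 123, 139 and 139 CPM. In both genes the lowest Bmal1IEC-/- mouse was above the highest control. The mean of the mitosis list at CT13 was 3.66 ± 0.15 log2 CPM in controls and 4.34 ± 0.14 in Bmal1IEC-/- mice (SD, n = 4), and that of the replication list was 3.77 ± 0.17 and 3.803 ± 0.13.

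SV384 and SV385 are not CT13 mice, and without them 10 mitosis genes were called at CT13, against 4.43% of all genes. Leaving out 1 mouse gave 2 to 11 calls, with 2 without SV424 (control) or SV449 (Bmal1IEC-/-) and 4 or 5 without SV396, SV397 (controls) or SV395 (Bmal1IEC-/-), so the count depends on single mice at this time. Cell type markers at CT13 were compared in the same mice. All 6 fibroblast markers passed the filter, and their mean was 7.09 to 7.43 log2 CPM in controls and 6.87 to 7.02 in Bmal1IEC-/- mice. For 3 of 6 T cell markers it was 2.01 to 2.28 and 1.60 to 1.92. Epithelium (9.46 to 9.62 and 9.36 to 9.74, 10 of 10 markers), crypt stem and progenitor cells (4.01 to 4.62 and 4.17 to 4.59, 7 of 8, with Olfm4 at 0 in 45 mice) and smooth muscle (8.17 to 8.46 and 7.95 to 8.43, 8 of 8) overlapped between the genotypes. Adding the smooth muscle level to the fit left 12 mitosis genes called at CT13, against 4.21% of all. The part of the fibroblast and T cell differences in the result was not tested. Germinal centre B cells, which divide quickly, had a mean of 2.17 to 3.09 over all mice for 4 of 6 markers.

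At CT1 replication genes were called higher and mitosis genes lower in Bmal1IEC-/- mice, and none of these calls held without SV384 and SV385. Tyms was at 17.95, 25.6, 28.7 and 29.7 CPM in controls and at 37.0, 38.5, 40.0 and 40.3 CPM in Bmal1IEC-/- mice, and Mcm2 was at 20.8, 21.1, 23.8 and 24.0 CPM against 27.7, 28.8, 35.0 and 44.5 CPM, both without overlap. No other replication gene was higher without overlap at CT1. Of all genes 10.9% were, so such gaps were no more common among the replication genes than in the background. With all 48 mice, 4 replication genes were called higher in Bmal1IEC-/- mice, namely Tyms (log2 fold change 0.61 ± 0.14), Gins2 (0.78 ± 0.27), Cdt1 (0.75 ± 0.22) and Mcm2 (0.59 ± 0.18), and 4 mitosis genes were called lower, namely Ccnb1 (-0.74 ± 0.22), Cenpe (-0.68 ± 0.24), Anln (-0.64 ± 0.20) and Plk1 (-0.48 ± 0.11). Of all genes 24.7% were called at this time, 13.8% higher and 11% lower, so these shares are near the background. Without SV384 and SV385 the counts were 0 and 0, against 1.21% of all genes, and the log2 fold changes were 0.59 for Tyms (adjusted p = 0.0583), 0.96 for Gins2, 0.52 for Cdt1, 0.32 for Mcm2, -0.82 for Ccnb1 (adjusted p = 0.115), -0.69 for Cenpe, -0.47 for Anln and -0.32 for Plk1, all in the same direction as with 48 mice. That setting leaves only SV479 and SV480 as Bmal1IEC-/- mice at CT1. Calls lost to a smaller group and calls that rested on SV384 and SV385 cannot be told apart. With the smooth muscle level in the fit, 1 replication gene and 0 mitosis genes were called, against 5.1% of all. Epithelial markers were at 9.05 to 9.20 log2 CPM in controls and 9.46 to 10.1 in Bmal1IEC-/- mice at CT1, and smooth muscle markers at 8.32 to 8.74 and 6.49 to 8.32, so the make-up of the samples moved with the genotype at this time, and its part in these values was not tested beyond that fit. Leaving out SV385 alone gave 1 replication gene and 2 mitosis genes, and leaving out the control mouse SV455 gave 1 mitosis gene and the control mouse SV469 gave 9.

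At the other times no gene of either list was called (0.376% of all genes at CT5, 1.46% at CT9, 0.876% at CT17 and 0.328% at CT21). At CT9, 10 replication genes had an unadjusted p under 0.05 and were higher in Bmal1IEC-/- mice, against 9.23% of all genes in either direction, and 23 of 25 values were above 0 with a median of 0.32. All 4 Bmal1IEC-/- mice were above all 4 controls in 3 of 25 replication genes, Tyms, Lig1 and Gins2, against 2.07% of all genes. Tyms was at 21.2, 21.3, 22.4 and 29.9 CPM against 13.8, 17.7, 19.2 and 19.4 CPM in controls. In the other replication genes the groups overlapped, as in Rrm2, for which 1 Bmal1IEC-/- mouse, SV400, stood high and which was at 9.90, 11.2, 18.9 and 31.6 CPM against 10.8, 12.4, 13.3 and 13.8 CPM in controls. At CT17, 3 mitosis genes (Ube2c, Kif23 and Bub1b) had an unadjusted p under 0.05, all higher, against 6.92% of all genes. At CT5 and CT21 the counts at an unadjusted p under 0.05 were 0 and 0 for both lists, against 5.36% and 7.02% of all genes.

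**Figure D5:**
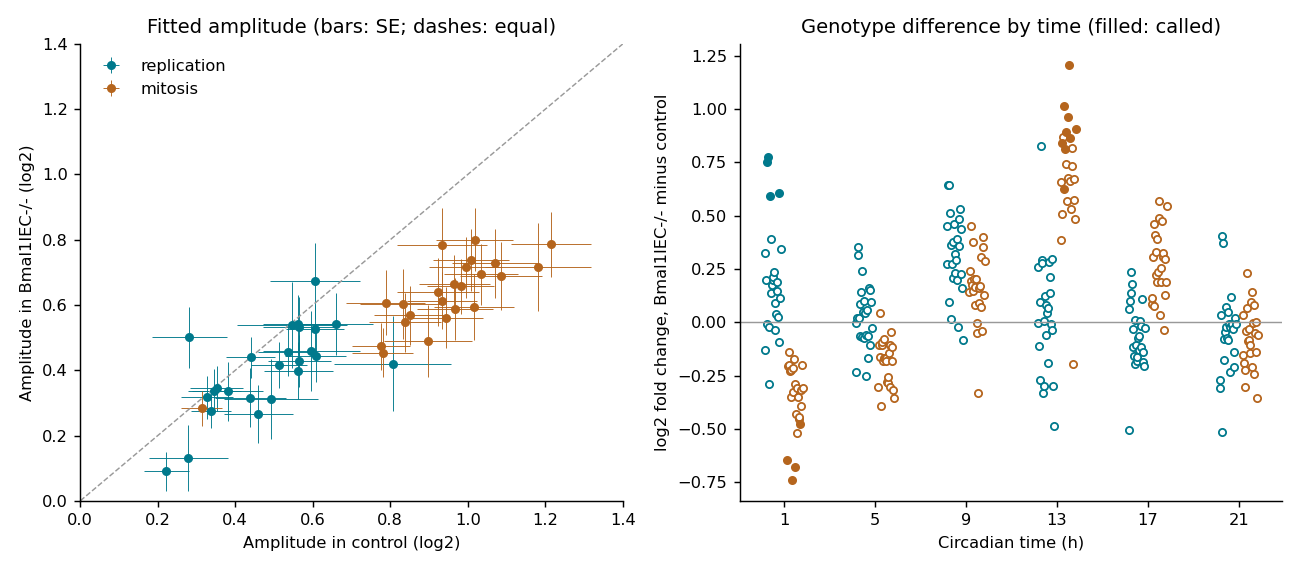
Left, fitted amplitude (log2) in Bmal1IEC-/- mice against controls for each of the 49 genes, with SE bars and a dashed line of equality. Right, the log2 fold change between genotypes (4 mice each) for each gene by circadian time in hours, filled where the adjusted p was under 0.05, with mitosis genes up to 1.21 at CT13 and down to -0.74 at CT1.

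Averaged over the day, few of these genes differed in level between genotypes. In the model with genotype and circadian time, 2 of 25 replication genes and 0 of 24 mitosis genes were called, against 12% of all genes, 6.4% higher and 5.56% lower. At an unadjusted p under 0.05 the counts were 3 and 1, against 26.4% of all. Gins2 had a mean of 4.07 CPM in 24 controls and 5.56 CPM in 24 Bmal1IEC-/- mice (log2 fold change 0.44 ± 0.12, adjusted p = 0.00855), and 0.00872 without SV384 and SV385, when 10.5% of all genes were called. Its CT21 values were 3.97, 5.46, 5.84 and 6.14 CPM in controls and 6.31, 6.50, 7.34 and 7.75 CPM in Bmal1IEC-/- mice, which did not overlap. Of all genes 2.22% were higher without overlap at CT21 and 2.35% lower. Gins1 was among the lower ones, at 4.72 to 7.86 CPM in controls and 3.64 to 4.54 CPM in Bmal1IEC-/- mice. Tyms had 22.1 and 25.6 CPM (0.20 ± 0.07, adjusted p = 0.0441), and 0.107 without SV384 and SV385, so its call does not hold without them. Neither passed the fold change of 1.5 that 1.35% of all genes passed. The median log2 fold change was 0.08 for both lists and 0.00 for all genes. Plk1, the mitosis gene with the smallest p, was lower in Bmal1IEC-/- mice (-0.14 ± 0.05, adjusted p = 0.0559), and its neighbour Ern2 was at 181 CPM in controls and 157 CPM in Bmal1IEC-/- mice (-0.21 ± 0.05, adjusted p = 0.00568).

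Genes of the same pathways outside the lists were counted in the same fits. Of 45 other replication genes, such as origin recognition and polymerase subunits, 32 were called rhythmic in controls and 27 in Bmal1IEC-/- mice (45.1% and 27.5% of all genes), with mean peaks of CT23.1 and CT0.144. Of 52 other mitosis genes, such as condensin and kinetochore subunits, 49 were called in each genotype, with mean peaks of CT3.54 and CT5.23. In controls the called peaks ran from CT15.9 to CT5.05 (other replication) and from CT23.5 to CT6.81 (other mitosis). In Bmal1IEC-/- mice they ran from CT20.2 to CT5.56 and from CT23.9 to CT8.12, so these ranges overlapped in both genotypes. The median control amplitude was 0.34 in the other replication genes, against 0.51 in the list, and 0.82 in the other mitosis genes, against 0.95 in the list. Their median shifts were 1.10 h and 1.73 h and their median amplitude ratios 0.862 and 0.682. A difference in rhythm was called for 1 other replication gene, E2f2, and for 5 other mitosis genes, Cenpa, Iqgap3, Ckap2, Smc4 and Kif14 (1.92% of all genes). E2f2, an activating E2F factor, had an amplitude of 0.87 in controls and 0.21 in Bmal1IEC-/- mice (adjusted p = 0.00407) and a higher mean in Bmal1IEC-/- mice, 32.9 against 18.6 CPM (log2 fold change 0.90 ± 0.12, adjusted p = 1.04e-07). In the genotype model Rfc2, Slbp and E2f2 were called higher, and Cdc25b, a phosphatase that activates Cdk1, was called lower (-0.35 ± 0.07, adjusted p = 0.00013).

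Wee1, the kinase that holds Cdk1 inactive and a known target of the clock, is no gene of the lists. In controls it was at 27.2, 30.6, 31.1 and 34.9 CPM at CT17 and at 16.7 to 18.9 CPM at CT5, and it peaked at CT15.7 with an amplitude of 0.39 ± 0.06 (adjusted p = 2.11e-06), when the mitosis genes were low. In Bmal1IEC-/- mice it was at 17.98, 23.2, 24.2 and 24.3 CPM at CT17 and at 18.2, 19.9, 19.9 and 20.8 CPM at CT5. These ranges overlapped, and the fitted amplitude was 0.03 (adjusted p = 0.931, difference in rhythm 0.0212). At CT13 controls were at 25.96 to 34.0 CPM and Bmal1IEC-/- mice at 16.9 to 21.8 CPM. Of all genes 6.41% were likewise lower without overlap at CT13, the time at which the mitosis genes were higher. Wee1 was also lower without overlap at CT17 and at CT21 (22.9 to 26.4 against 13.6 to 18.5 CPM). The share of all genes was 2.61% at CT17 and 2.35% at CT21. At CT17 and CT21 no mitosis gene was called, and the median log2 fold change of the list was 0.28 and -0.07. Cdkn1a, an inhibitor of cyclin-dependent kinases, had amplitudes of 0.29 ± 0.07 and 0.31 ± 0.07, with an adjusted p of 0.933 for the difference. No link between these genes and the lists was tested.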

How the data were processed

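RNA from whole colon of 48 mice was made into TruSeq Stranded mRNA libraries and read as pairs of 150 bases. The authors trimmed reads with Trimmomatic 0.39, aligned them to mm10 with STAR 2.7.5c, and deposited raw exon counts per gene made with featureCounts 1.4.6, from reads of mapping quality 4 or more, without reads on several features or chimeric pairs. The annotation release and the strand setting of the counting are not given in the sources used here. Names of tools and versions come from the submitters' processing notes and the study's methods.

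From the deposited counts, genes with low counts were removed (filterByExpr on the 12 groups), which left 14618 of 55401, and library sizes were scaled by TMM. All fits used edgeR 4.0.16 (R 4.3.3, glmQLFit and glmQLFTest) on all 48 mice, with Benjamini-Hochberg adjustment over all genes tested and a threshold of 0.05. The rhythm model held genotype means and a cosine and sine of 24 h in each genotype. The genotype model held genotype and circadian time as a factor, as in the study, and differences at each time came from 12 group means. Errors of fitted values are SE, those of peak times by the delta method. A list's level in a mouse is the mean log2 CPM of its genes with a prior count of 2. The self-made scripts were tested on simulated data. P-values from the 12 group means rest on the spread between mice of a group. In the rhythm model that spread also holds departures from a 24-h cosine. In the genotype model it also holds genotype differences that vary between times. The number of mice and counts per gene limit the precision.

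Members and gene lists were chosen with earlier results of these data known, so no p-value is given for a list. Genes whose values are given by mouse are, in each list, the 5 with the largest control amplitude, the 2 with the smallest p of the rhythm difference and of genotype, and Pcna, Mcm2, Mki67 and Ccnb1. Promoter sequences are from RefSeq (GRCm38.p6). Alternatives were 46 mice without SV384 and SV385, other size factors, no filter, marker levels as covariates, each mouse or circadian time left out, DESeq2 1.42.0, JTK_cycle, times as a factor and other measures of the peak.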

Additional observations from a re-analysis of the deposited data

Results flagged for a closer look

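In groups of 4 mice, 11 of 252 values of a group had 1 mouse far from the other 3, by Dixon's test, and chance marks about 1 in 20 groups, here 12.6. The replication list in controls at CT1 had 1 mouse (SV469) at 4.20 log2 CPM with the others at 4.63 to 4.69. Gins1 in Bmal1IEC-/- mice had 1 low mouse at CT5 (1.76 CPM) and 1 at CT9 (2.58 CPM). Gins2 in Bmal1IEC-/- mice had 1 low mouse at CT1 (SV384, 5.18 CPM, others 9.62 to 9.88) and 1 high mouse at CT9 (7.38 CPM). Tyms had 1 high mouse in controls at CT5 (24.7 CPM) and 1 in Bmal1IEC-/- mice at CT9 (SV400, 29.9 CPM). Nusap1 in Bmal1IEC-/- mice had 1 high mouse at CT21 (20.1 CPM). Hmmr in Bmal1IEC-/- mice had 1 high mouse at CT9 (SV400 again, 30.2 CPM, others 14.1 to 16.6). The control mouse SV420 at CT9 was low for Hmmr (14.7 CPM, others 27.1 to 28.3) and for Ube2c (19.2 CPM).

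The rhythm of 7 mitosis genes differed between the genotypes by a test of the difference itself (edgeR's quasi-likelihood test), with adjusted p of 0.00606 for Ube2c, 0.0132 for Ccnb1, 0.0233 for Ccna2, 0.0378 for Birc5, 0.0430 for Cenpe, 0.0486 for Kif23 and 0.0493 for Nusap1.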

How the results depend on the processing

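Counts of rhythmic genes in each genotype stayed within 1.5 times of the values given under every alternative run. No paired analysis was possible because each mouse was sampled at 1 time and the labels give no replicate numbers shared between groups. For the 7 mitosis genes with a rhythm difference, the count was 2 with 46 mice, 3 with the smooth muscle covariate, 13 with DESeq2, 3 with 6 times as a factor (which called 1 replication gene), and 2 to 13 with 1 mouse left out. Taking the time of the highest group mean as the peak, which moves in steps of 4 h, gave a mean peak of 2.71 and 7 h (CT) for the mitosis genes in controls and Bmal1IEC-/- mice, a distance to the replication genes of 4.11 h in controls, and median shifts of 0 h for replication and 4 h for mitosis genes. For the 2 replication genes called for genotype, the count was 1 with 46 mice, upper quartile scaling, no filter, the smooth muscle covariate, or without CT5 or CT9, and 0 without CT1 or when a fold of 1.5 was tested, with 1 to 3 when 1 mouse was left out (1 without any of 26 mice). For mitosis genes the count of 0 became 1 without CT21 or with DESeq2, and was 0 to 1 with 1 mouse left out. At CT1 the counts of 4 and 4 became 0 and 0 with 46 mice and 1 and 0 with the smooth muscle covariate, and with 1 mouse left out they were 1 to 5 replication and 1 to 9 mitosis genes. At CT9 the follicle B cell covariate called 1 replication gene. At CT13 the 9 mitosis genes became 19 with no filter (2.33% of all genes with a count) and 2 to 11 with 1 mouse left out, and the replication count was 0 to 1. The causes of these changes were not tested. Low counts limit Gins1 (mean 3.15 CPM) and Gins2 (4.81 CPM) most.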
